A study of Mus musculus with 12 samples.

Results

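The expression of 10 early response genes was followed in cardiac samples of mice labelled as knockouts (KO) of the epidermal growth factor receptor (EGFR) and of wild-type (WT) mice: the nuclear receptor genes Nr4a1, Nr4a2 and Nr4a3, the immediate early response genes Ier2, Ier3 and Ier5, the zinc-finger transcription factor genes Klf2, Klf4 and Klf6, and the antiproliferative gene Btg2. They were chosen by symbol, and all 10 were found among the 24340 gene rows of each deposited gene table and were tested by the authors in both. RNA-seq libraries labelled as cardiac cells formed 4 groups of 3 samples, namely EGFR KO at 9 weeks of age (9wkKO), EGFR KO at 7 weeks (7wkKO), WT at 7 weeks (7wkWT) and WT at 9 weeks, the last of which was not analysed here. A first deposited table set 7wkKO against 7wkWT, a second 9wkKO against 7wkKO. The sources used here do not give the strain, the promoter or Cre behind the deletion, the deleted part of Egfr or the alleles of the WT mice.

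Each table listed 1 FPKM value (fragments per unit of transcript length, relative to all those mapped) per gene and group, so neither the spread between samples nor the depth is known, and no SD can be given. Every sample title carries a number of its own, but the labels do not say that it names an animal, and if the samples of a group shared one, the deposited p would measure technical spread. Levels, p and q values are those of the authors' deposited tables, log2 folds were recomputed from the FPKM of both groups, and a gene was called changed at a deposited Cuffdiff q under 0.05. Intervals of 95% use the error implied by the deposited test statistic. In the authors' deposited table, Egfr itself had FPKM of 1.64 in 7wkKO and 1.20 in 7wkWT (q = 0.379), and 1.59 in 9wkKO and 1.65 in 7wkKO (q = 0.991). It was thus not lower in the libraries labelled KO at 7 weeks, which does not check the genotype while the deleted part is unknown. All 5 cardiomyocyte markers were tested in both comparisons, with 0 called and 0 at an unadjusted p under 0.05. Their FPKM summed to 25338 in 7wkKO and 25401 in 7wkWT, with log2 folds from -0.22 (Tnnt2) to 0.36 (Ryr2). The errors of these folds ran from 0.32 (Ryr2) to 2.02 (Myh6), against 0.25 to 0.53 for the 10 genes. The lack of calls thus does not show unchanged levels. Of 5 T and B cell markers 0 reached the authors' minimum for testing, and 3 stood below FPKM 0.1 in each group.

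Early response genes are transcribed within minutes of a stimulus, without new protein synthesis, when growth factor, calcium or cAMP signals reach transcription factors already present, such as CREB and the serum response factor. The Nr4a proteins are orphan nuclear receptors whose activity follows mainly from how much protein is made, and in the heart they respond to adrenergic signals. Ier proteins are short-lived; IER5 and IER2 have been reported in human cell lines to bind phosphatase 2A (PP2A) holoenzymes, and IER3 to act on cell survival. Klf2 and Klf4 are known for their part in the response of endothelium to blood flow, Klf6 is an injury-induced family member found in many cells, and Btg2 is a p53-responsive gene whose product recruits a deadenylase that shortens mRNA tails.

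The stretch upstream of the start site was read for these genes because CREB sites there are a textbook feature of cAMP-responsive early genes. RefSeq promoters (GRCm38.p6) matched 9 of the 10 genes, Ier2 having no entry, and all 9 adjoined the locus of the deposited mm10 table. For Btg2 and Klf4, unlike the others, the bases just after the start were not found in the GENCODE transcripts matched to the gene. The Nr4a genes, Btg2 and Ier5 are shown because the first 4 held the most CREB-type matches and Ier5 held none while its level differed most between groups. Each line gives the 250 bases before the start, 5′ to 3′ on the gene's strand, and capitals mark the full cAMP response element (CRE) TGACGTCA, its short form TGACG and TATAAA, each on either strand.
Nr4a1 (chr15:101266596-101266845, plus strand): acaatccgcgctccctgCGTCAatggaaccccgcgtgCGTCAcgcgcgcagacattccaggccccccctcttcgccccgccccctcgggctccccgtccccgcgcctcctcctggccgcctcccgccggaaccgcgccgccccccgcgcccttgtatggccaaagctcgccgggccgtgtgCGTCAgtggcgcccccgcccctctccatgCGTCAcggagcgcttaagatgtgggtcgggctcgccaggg
Nr4a2 (chr2:57124004-57124253, minus strand): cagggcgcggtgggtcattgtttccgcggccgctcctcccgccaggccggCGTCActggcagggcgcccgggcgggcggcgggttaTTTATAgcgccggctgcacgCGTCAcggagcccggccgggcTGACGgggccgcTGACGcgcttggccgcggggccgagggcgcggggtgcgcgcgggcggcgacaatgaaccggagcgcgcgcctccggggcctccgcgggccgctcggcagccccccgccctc
Nr4a3 (chr4:48045055-48045304, plus strand): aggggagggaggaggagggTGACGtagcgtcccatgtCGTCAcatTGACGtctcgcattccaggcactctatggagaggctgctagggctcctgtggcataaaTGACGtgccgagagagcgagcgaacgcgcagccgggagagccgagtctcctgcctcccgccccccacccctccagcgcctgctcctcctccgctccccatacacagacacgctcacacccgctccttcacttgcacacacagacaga
Btg2 (chr1:134079156-134079405, minus strand): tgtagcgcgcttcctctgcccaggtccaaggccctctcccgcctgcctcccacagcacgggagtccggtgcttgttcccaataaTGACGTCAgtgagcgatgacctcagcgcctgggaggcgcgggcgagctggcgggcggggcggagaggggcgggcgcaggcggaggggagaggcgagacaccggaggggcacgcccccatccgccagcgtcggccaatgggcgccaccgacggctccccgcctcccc
Ier5 (chr1:155099637-155099886, minus strand): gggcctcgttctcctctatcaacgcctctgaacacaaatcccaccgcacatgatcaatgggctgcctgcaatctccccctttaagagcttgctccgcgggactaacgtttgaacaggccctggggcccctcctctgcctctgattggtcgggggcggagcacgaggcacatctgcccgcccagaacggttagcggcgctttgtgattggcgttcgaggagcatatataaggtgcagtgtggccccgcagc

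Each of the 3 Nr4a promoters held 4 copies of the short CRE, a number reached or passed by 45 of 32851 promoters of the same length (0.137%). In Nr4a1 they all read on the other strand (as CGTCA), beginning at -233, -213, -69 and -40 from the start. Those of Nr4a2 and Nr4a3 lay on both strands, the nearest beginning at -111 and -147. The full CRE TGACGTCA, which contains a short CRE on each strand, was found in Btg2 and in 1.55% of all promoters. Klf2 and Klf4 held 1 short CRE each, so that 6 of the 9 genes had at least 1, against 17.8% of all promoters. The short CRE contains a CG pair, and the promoters of the 9 genes were richer in G and C (median 71.2%) than all promoters (median 52.4%). Among the 9178 promoters with at least 60% G and C, 27.1% held a short CRE and 0.37% held 4 or more. The CArG box, the serum response factor site, was searched as CC, 6 bases of A or T and GG. This strict form was found in 0 of the 9 windows and in 1.47% of all promoters, and the Nr4a monomer site AAAGGTCA in 0 and 1.34%. Looser forms were not counted, such as CCTTGTATGG in Nr4a1, which differs by 1 base. The exact letters TATAAA were found in Nr4a2 alone of the 9 genes, on the other strand, and in 12.4% of all promoters. Similar stretches were not counted, such as TATATAAG near the start of Ier5, so this does not show which genes have a TATA box. These matches describe letters in the reference genome and were not measured in these samples.

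**Figure D1:**
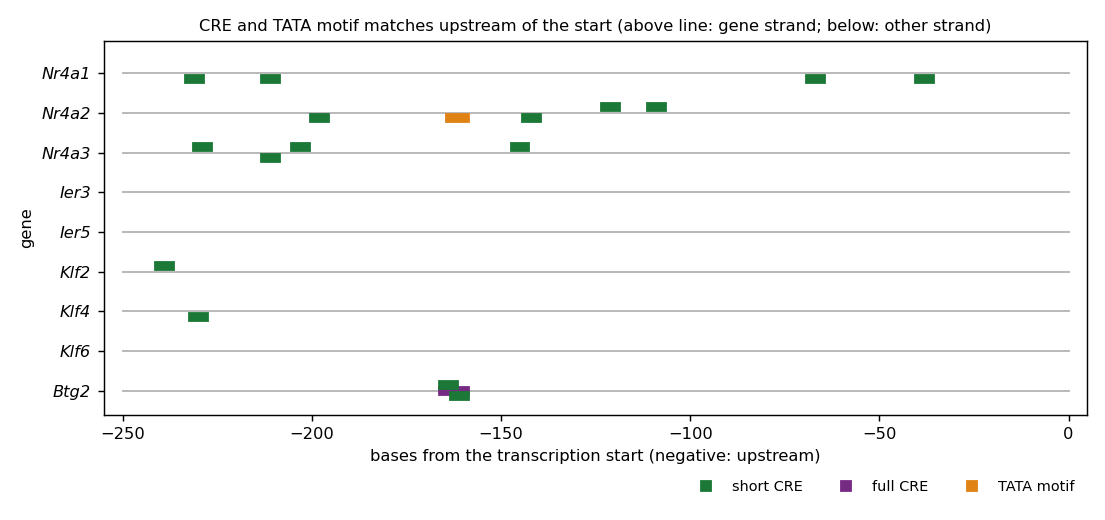
Matches to the short CRE, the full CRE and the exact letters TATAAA (labelled TATA motif) in the 250 bases upstream of the start of 9 genes. The x axis is the distance from the start in bases, and boxes above the line lie on the gene's strand, boxes below it on the other. Nr4a1, Nr4a2 and Nr4a3 carry 4 short CREs each, and Ier3, Ier5 and Klf6 carry none.

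The genes were also compact. In GENCODE transcripts of the deposited isoforms they had a median of 3.5 exons and a span of 4637.5 bases, against 9 exons and 21761.5 bases for the 11842 tested genes with a matched transcript. Ier2 and Ier5 consisted of 1 exon each, Ier3 and Btg2 of 2, Klf2 of 3, Klf6 of 4 and Klf4 of 5. The Nr4a genes had the most exons of the set, with 7 exons in Nr4a1 and 8 in each of Nr4a2 and Nr4a3, and Nr4a3 spanned 41293 bases. The mature transcripts had a median length of 2886 bases, against 2890.5 bases for those tested genes.

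Levels of the 10 genes ran from among the highest to among the lowest of all tested genes in the authors' deposited tables. Klf2 was the most abundant, at FPKM 134 in 9wkKO, 109.7 in 7wkKO and 132 in 7wkWT, and stood above 94.9%, 94.1% and 94.8% of tested genes in those groups. Klf4, Ier3 and Klf6 followed, between FPKM 45.3 and 63.4 in every group. Ier5, Btg2, Ier2 and Nr4a1 lay between 13.0 and 39.8. The other Nr4a genes were scarce, Nr4a3 at FPKM 1.89 in 9wkKO, 3.07 in 7wkKO and 2.20 in 7wkWT, and Nr4a2 below 1 in all groups, where it stood above 2.34% of tested genes at most. Nr4a1 was thus the main Nr4a transcript in each group, at 14.1 in 9wkKO, 13.0 in 7wkKO and 19.1 in 7wkWT. The order was the same in all groups for Klf2, first, and for the Nr4a genes, the last 3. Klf4 and Ier3 changed places, as did Ier5 and Ier2, and without values per sample it cannot be said which neighbours in the order differ beyond their spread. Btg2 and Ier2 lay close together in 7wkWT, at 22.9 and 22.5.

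**Figure D2:**
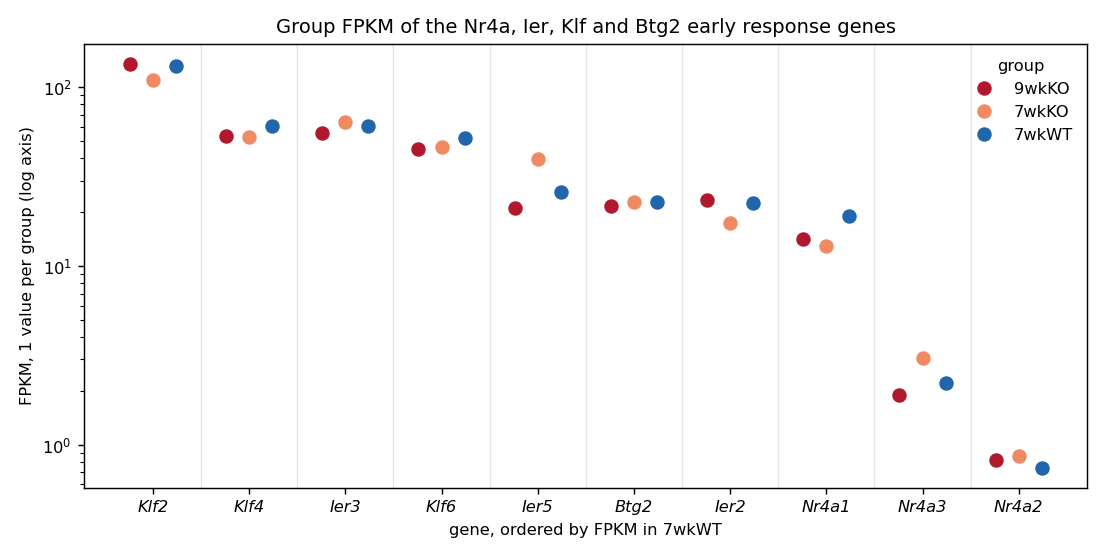
FPKM of the 10 genes on a log axis, 1 point for each of 9wkKO, 7wkKO and 7wkWT (each the authors' value for 3 samples, with no error available), ordered by the level in 7wkWT. Klf2 is highest at FPKM 109.7 to 134 and Nr4a2 lowest at 0.745 to 0.866, and Ier5 and Nr4a3 show 7wkKO above both other groups.

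The first comparison asked how EGFR KO samples differed from WT samples at 7 weeks. Ier5 was higher and Nr4a1 lower in 7wkKO, and the other 8 genes were not called. Of all 11987 tested genes 2.37% were called in either direction (1.67% higher and 0.701% lower), against 2 of these 10 genes. At an unadjusted p under 0.05 there were 4 of the 10, Ier5 and Nr4a3 above and Nr4a1 and Ier2 below 7wkWT, against 11.3% of all tested genes. The median log2 fold of the 10 was -0.09 (range -0.56 to 0.62), beside -0.00061 for all tested genes, with 4 above 0 and 6 below.

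Nr4a1 (mm10, chromosome 15, 101266846 to 101274794) had FPKM of 13.0 in 7wkKO and 19.1 in 7wkWT in the authors' deposited table. It fell by 0.56 on the log2 scale (95% interval -1.13 to 0.02, the authors' Cuffdiff p = 0.00055, q = 0.0296). Nr4a3 (chromosome 4, 48045305 to 48086446) pointed the other way, with FPKM of 3.07 in 7wkKO and 2.20 in 7wkWT, a log2 fold of 0.48 (-0.16 to 1.12) that was not called (the authors' p = 0.0089, q = 0.175). Nr4a2 (chromosome 2, 57107226 to 57124003) was listed at 0.866 in 7wkKO and 0.745 in 7wkWT (log2 fold 0.22, interval -0.83 to 1.27, q = 0.911), the widest interval of the set. The Nr4a genes thus did not share a direction at 7 weeks, and the difference between their folds was not tested.

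Ier5 (chromosome 1, 155096367 to 155099636) had FPKM of 39.8 in 7wkKO and 26.0 in 7wkWT in the authors' deposited table. It rose by a log2 fold of 0.62 (95% interval 0.12 to 1.12), with the smallest p that the table holds, 5e-05 (q = 0.004995). Ier2 (chromosome 8, 84661331 to 84662852) lay lower, at 17.4 in 7wkKO and 22.5 in 7wkWT, a log2 fold of -0.37 (-0.91 to 0.16) that was not called (the authors' p = 0.0186, q = 0.272). Ier3 (chromosome 17, 35821713 to 35822911) was listed at 63.4 in 7wkKO and 60.7 in 7wkWT (log2 fold 0.06, -0.44 to 0.57, q = 0.964). The name Ier groups genes by their induction, and Ier2 and Ier5 encode related proteins whereas Ier3 does not belong to that protein family.

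The Klf genes all stood slightly below WT at 7 weeks, and none was called. Klf2 (chromosome 8, 72319062 to 72321654) had FPKM of 109.7 in 7wkKO and 132 in 7wkWT in the authors' deposited table, a log2 fold of -0.26 (95% interval -0.77 to 0.25, q = 0.522). Klf4 (chromosome 4, 55527137 to 55532475) had 52.6 in 7wkKO and 60.9 in 7wkWT (log2 fold -0.21, -0.71 to 0.29, q = 0.673). Klf6 (chromosome 13, 5861489 to 5870393) had 46.3 in 7wkKO and 52.1 in 7wkWT (log2 fold -0.17, -0.67 to 0.33, q = 0.783). Btg2 (chromosome 1, 134074865 to 134079155) was listed at 22.8 in 7wkKO and 22.9 in 7wkWT, with an interval of the log2 fold of -0.50 to 0.49 (q = 0.996). Intervals of this width do not separate a small change from none.

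Markers of endothelium stood on the same side of 0 as the Klf genes. All 7 endothelial markers, among them Cdh5, Pecam1 and Kdr, had log2 folds below 0 at 7 weeks (-0.44 to -0.24, median -0.30), with 0 called by the deposited Cuffdiff q and 5 at an unadjusted p under 0.05. In the authors' deposited table their FPKM summed to 435 in 7wkKO and 552 in 7wkWT, and none of the 7 was below FPKM 0.1. Relative to their mean log2 fold, Klf2 stood at 0.06, Klf4 at 0.11 and Klf6 at 0.16, while Nr4a1 stood at -0.23 and Ier5 at 0.94. In such bulk samples fewer cells of a type and less RNA per cell cannot be told apart, and the part of cell makeup in these folds was not tested. Macrophage markers had 5 of 5 log2 folds below 0 (median -0.18, summed FPKM 169 in 7wkKO and 192 in 7wkWT), and fibroblast markers 4 of 5 above 0 (median 0.20), with 0 of either called and 0 at an unadjusted p under 0.05. Smooth muscle and pericyte markers had a median of 0.04 with 0 of 7 called and 0 at an unadjusted p under 0.05, and neutrophil and platelet markers a median of -0.47 with 0 of 3 called and 1 at an unadjusted p under 0.05.

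The second comparison asked how EGFR KO samples at 9 weeks differed from EGFR KO samples at 7 weeks. Ier5 and Nr4a3 were lower in 9wkKO, both at the smallest p in the table, and no member was called higher. Among all 12046 tested genes 4.66% were called (1.89% higher and 2.76% lower), against 2 of the 10. At an unadjusted p under 0.05 there were 4, Ier5 and Nr4a3 below and Ier2 and Klf2 above 7wkKO, against 12.9% of all tested genes. The median log2 fold was -0.06 (range -0.92 to 0.41), beside 0.014 for all tested genes. No 9-week WT value was used, so age and any change that KO mice alone went through cannot be told apart. The 7wkKO samples serve in both comparisons, and their FPKM for the 10 genes was 0.724% to 0.851% higher in the later table.

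By the authors' deposited table Ier5 had FPKM of 21.2 in 9wkKO and 40.1 in 7wkKO. It fell by 0.92 on the log2 scale (95% interval -1.40 to -0.45, deposited Cuffdiff q = 0.00237), which is a change of -47.3%. Ier2 lay the other way, at 23.3 in 9wkKO and 17.5 in 7wkKO, a log2 fold of 0.41 (-0.09 to 0.92, the authors' p = 0.0048) that missed the threshold (q = 0.0858). Ier3, at 55.6 in 9wkKO and 63.9 in 7wkKO, had a log2 fold of -0.20 (-0.68 to 0.27, q = 0.659).

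By the authors' deposited table Nr4a3 had FPKM of 1.89 in 9wkKO and 3.10 in 7wkKO. It fell by 0.71 on the log2 scale (95% interval -1.34 to -0.08, the authors' Cuffdiff p = 5e-05, q = 0.00237). Nr4a1, which had been lower in KO samples at 7 weeks, was listed at 14.1 in 9wkKO and 13.1 in 7wkKO (log2 fold 0.11, -0.43 to 0.65, q = 0.934). Nr4a2 was listed at 0.818 in 9wkKO and 0.874 in 7wkKO (log2 fold -0.10, -1.04 to 0.85, q = 0.9898).

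By the authors' deposited table Klf2 had FPKM of 134 in 9wkKO and 111 in 7wkKO, a log2 fold of 0.28 (95% interval -0.21 to 0.77) that was not called (the authors' p = 0.0499, q = 0.386). Klf4, at 52.96 in 9wkKO and 52.97 in 7wkKO, had an interval of the log2 fold of -0.49 to 0.49 (q = 0.9995). Klf6 was listed at 45.3 in 9wkKO and 46.7 in 7wkKO (log2 fold -0.04, -0.52 to 0.43, q = 0.991), and Btg2 at 21.6 in 9wkKO and 23.0 in 7wkKO (log2 fold -0.09, -0.56 to 0.39, q = 0.950). Endothelial markers stood higher at 9 weeks, with 7 of 7 log2 folds above 0 (0.26 to 0.81, median 0.35). Of the 7 markers 2 were called, Kdr and Emcn, against 4.66% of all tested genes. At an unadjusted p under 0.05 there were 6 of them, against 12.9% of all tested genes. In the authors' deposited table their FPKM summed to 583 in 9wkKO and 439 in 7wkKO. Relative to their mean log2 fold Klf2 stood at -0.14, Klf4 at -0.42 and Klf6 at -0.47, and the part of cell makeup in these folds was not tested. Smooth muscle and pericyte markers had 7 of 7 log2 folds above 0 (median 0.21), with 0 called and 1 at an unadjusted p under 0.05, and of 5 macrophage markers 3 were above 0 (median 0.02), with 0 called and 1 at an unadjusted p under 0.05. Cardiomyocyte markers had a median of -0.05, and fibroblast markers a median of -0.05 with Lum called lower. Neutrophil and platelet markers had 4 of 4 log2 folds above 0 (median 1.71), with Ppbp called higher and 2 at an unadjusted p under 0.05. S100a8 and S100a9 stood at 1.58 and 2.28, with large errors (1.11 and 1.22) and FPKM of 0.626 and 0.598 in 7wkKO.

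**Figure D3:**
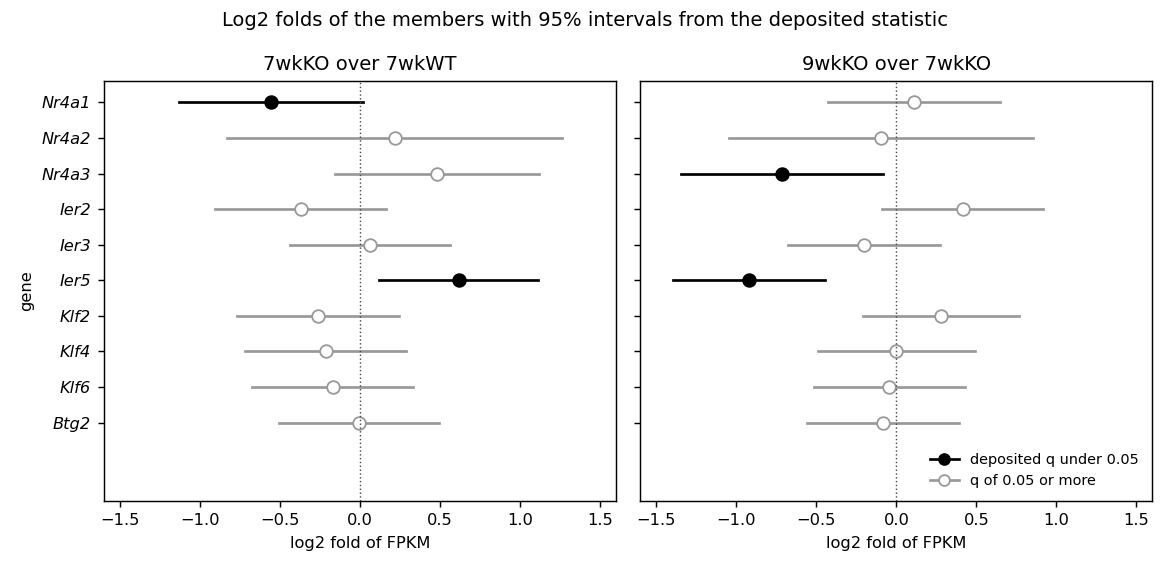
Log2 fold of FPKM for each of the 10 genes, 7wkKO over 7wkWT on the left and 9wkKO over 7wkKO on the right; points are the folds, bars the 95% intervals implied by the deposited statistic, and filled black marks a deposited q under 0.05. Ier5 and Nr4a1 are called on the left, at 0.62 and -0.56, and Ier5 and Nr4a3 on the right, at -0.92 and -0.71.

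A test on the deposited statistic alone is stricter than the deposited p, and it called 0 members at 7 weeks, where it called 0.117% of all genes, and Ier5 alone between 9wkKO and 7wkKO, where it called 0.573%. The call of Nr4a1 at 7 weeks was lost at a q under 0.01, which 1.13% of genes passed at 7 weeks and 2.8% later, while a q under 0.10, which 3.59% and 6% passed, added Ier2 to the later calls.

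Setting 9wkKO beside 7wkWT, as the sum of both log2 folds, gave values between -0.44 and 0.12, with no test and with wide intervals. These intervals treat the errors of both folds as independent, although 7wkKO enters both with opposite signs. Its error thus largely cancels in the sum, and the intervals are too wide. Ier5 stood at -0.30 (-0.99 to 0.38) and Nr4a3 at -0.23 (-1.13 to 0.66), so that both lay slightly below 7wkWT at 9 weeks. Nr4a1 was the lowest, at -0.44 (-1.23 to 0.34). Klf2 and Ier2 stood at 0.02 and 0.04, Klf4 and Klf6 at -0.21 each, Ier3 at -0.14, Btg2 at -0.09 and Nr4a2 at 0.12. Every one of the 10 intervals included 0, which does not show that any gene was back at its 7wkWT level.

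The isoform tables held 12 transcripts of the 10 genes, since 8 genes had a single transcript and Nr4a2 and Nr4a3 had 2 each. Of 9 tested transcripts 2 were called in each comparison, those of Ier5 and Nr4a1 at 7 weeks and those of Ier5 and Nr4a3 between 9wkKO and 7wkKO, where 1.42% and 2.93% of all tested isoforms were called. The main Nr4a3 transcript held 98.1% of its FPKM in 7wkKO and 100% in 9wkKO and 7wkWT to 3 digits. It was listed in the authors' deposited table at 1.89 in 9wkKO, against 3.04 in 7wkKO, with a log2 fold of -0.69 (q = 0.00342). Nr4a2 was split between its transcripts, the more abundant of which made up 55.3% of the FPKM in 9wkKO, 85.1% in 7wkKO and 88.0% in 7wkWT. Both Nr4a2 transcripts were below FPKM 1 and were not tested by the authors.

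Other early response genes were set beside these 10, in lists chosen with earlier results of these data known. At 7 weeks 5 of 25 tested genes, taken from the AP-1, Egr and other early response lists, were called higher and 0 lower. Over all tested genes 1.67% were called higher and 0.701% lower. At an unadjusted p under 0.05 there were 5 of the 25, against 11.3% of all tested genes. In the authors' deposited table, the growth regulator gene Myc had FPKM of 7.21 in 7wkKO and 2.33 in 7wkWT. Ctgf, a matricellular gene, had 151 in 7wkKO and 70.8 in 7wkWT, and the stress-induced factor gene Atf3 had 11.5 in 7wkKO and 6.22 in 7wkWT. Cyr61 and Trib1 were also called higher, at log2 folds of 0.59 and 0.53. Unlike these, Fos, Jun, Junb and Egr1 were not called at 7 weeks, with log2 folds of 0.53, 0.16, -0.04 and 0.21. The median of the 25 was 0.08. With the statistic alone 2 were called at 7 weeks, Ctgf and Myc.

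Between 9wkKO and 7wkKO 10 of 26 tested early response genes were called, 4 higher and 6 lower, with 13 at an unadjusted p under 0.05. Over all tested genes 4.66% were called (1.89% higher and 2.76% lower), and 12.9% had an unadjusted p under 0.05. In the authors' deposited table Fos was higher, at FPKM 4.12 in 9wkKO and 1.80 in 7wkKO. Egr1, at 11.2 in 9wkKO and 5.86 in 7wkKO, and Junb, at 22.6 in 9wkKO and 12.8 in 7wkKO, were higher too, as was Rgs2 (log2 fold 0.48). Atf3, at 4.46 in 9wkKO and 11.6 in 7wkKO, Myc, at 2.996 in 9wkKO and 7.26 in 7wkKO, and Ctgf, at 72.5 in 9wkKO and 152 in 7wkKO, were lower. Jun, Cyr61 and Trib1 were called lower as well, with log2 folds of -0.60, -0.57 and -0.74. Ier5 and Nr4a3 were called in the direction of this last group, while Ier2, whose log2 fold of 0.41 was not called, had the sign of Fos, Egr1 and Junb. The median of the 26 was -0.15. With the statistic alone 3 were called, Atf3, Ctgf and Myc.

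Relatives by sequence or family name came next. Of 14 tested Klf, Ier5l, Btg and Tob genes outside the 10, 0 were called at 7 weeks, with 2 at an unadjusted p under 0.05 (Tob1 above and Ier5l below 7wkWT, median -0.02). Between 9wkKO and 7wkKO 8 of the 14 had an unadjusted p under 0.05, against 12.9% of all tested genes, and the median was -0.23. Of the 14, 3 were called lower and 0 higher, against 2.76% and 1.89% of all tested genes. The 3 were Klf15, Klf3 and Klf12. In the authors' deposited table Klf15, a glucocorticoid-responsive metabolic regulator in muscle, had FPKM of 22.7 in 9wkKO and 33.7 in 7wkKO. Klf3 had 13.9 in 9wkKO and 20.0 in 7wkKO, and Klf12 had 2.49 in 9wkKO and 3.51 in 7wkKO. Klf9, the most abundant Klf gene outside the 10, had 69.7 in 9wkKO and 90.5 in 7wkKO (log2 fold -0.38, q = 0.09998). Ier5l, a relative of Ier5, lay opposite to it in both comparisons without being called, with log2 folds of -0.38 at 7 weeks and 0.40 between 9wkKO and 7wkKO (q = 0.407 and q = 0.244).

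Among 20 regulators upstream of early response genes, which are transcription factors such as Srf and Creb1, their coactivators, kinases and the NF-kB inhibitor Nfkbia, 0 were called at 7 weeks, with 3 at an unadjusted p under 0.05 and a median of 0.0046. Nfkbia and Mef2a were the most abundant of them, Nfkbia at FPKM 72.9 in 7wkKO and 88.2 in 7wkWT (q = 0.839) and Mef2a at 43.2 in 7wkKO and 41.1 in 7wkWT (q = 0.959) in the authors' deposited table. Between 9wkKO and 7wkKO Elk3, a ternary complex factor also expressed in endothelium, was called higher at 25.7 in 9wkKO and 18.7 in 7wkKO (median of the list 0.0093). Endothelial genes known to respond to Klf2 or Klf4 had 0 of 6 called at 7 weeks and a median of -0.24. At an unadjusted p under 0.05 there were 2, against 11.3% of all tested genes. Cldn5, Nos3, S1pr1 and Thbd lay below 0 (-0.45, -0.35, -0.28 and -0.20), and Vcam1 and Edn1 above it (0.25 and 0.04). The list was not split by the direction in which its genes respond to Klf2 or Klf4, so its median does not describe that response. The most abundant were S1pr1, a receptor gene, at 72.8 in 7wkKO and 88.5 in 7wkWT (q = 0.478), and Thbd at 51.8 in 7wkKO and 59.5 in 7wkWT (q = 0.704). Between 9wkKO and 7wkKO 1 of 6, the tight junction gene Cldn5, was called higher, at 40.1 in 9wkKO and 17.4 in 7wkKO. Of all tested genes 1.89% were called higher. The list median was 0.06, with 5 genes above 0 and 1 below. Endothelial markers had a median of 0.35 in that comparison, and their part in the values of Elk3 and Cldn5 was not tested.

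Genes that respond to p53, as Btg2 does, had 0 of 9 called at 7 weeks, with 4 at an unadjusted p under 0.05, all above 7wkWT, and a median of 0.27. The cyclin gene Ccng1, the most abundant, had FPKM of 322 in 7wkKO and 239.9 in 7wkWT in the authors' deposited table (q = 0.204), and the stress-responsive gene Sesn1 had 87.6 in 7wkKO and 69.0 in 7wkWT (q = 0.282). Between 9wkKO and 7wkKO Sesn1, at 51.3 in 9wkKO and 88.2 in 7wkKO, and Trp53inp1 were called lower and 0 higher. Of all tested genes 2.76% were called lower and 1.89% higher. At an unadjusted p under 0.05 there were 5 of the 9, against 12.9% of all tested genes. Of these 5, 3 were above and 2 below 7wkKO, and the list median was 0.18. Glucocorticoid-responsive genes, which include Klf9 and Klf15, had 0 of 10 called at 7 weeks, with 2 at an unadjusted p under 0.05, a median of -0.11 and a mean of 0.02. Between 9wkKO and 7wkKO 5 of 10 were called lower and 1, Mt2, higher (median -0.43), against 2.76% and 1.89% of all tested genes. As listed in the authors' deposited table, the chaperone gene Fkbp5 had 9.52 in 9wkKO and 28.6 in 7wkKO, Zbtb16 had 12.3 in 9wkKO and 37.0 in 7wkKO, and Tsc22d3 had 104 in 9wkKO and 162 in 7wkKO. Klf15 and Ddit4 were also called lower.

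**Figure D4:**
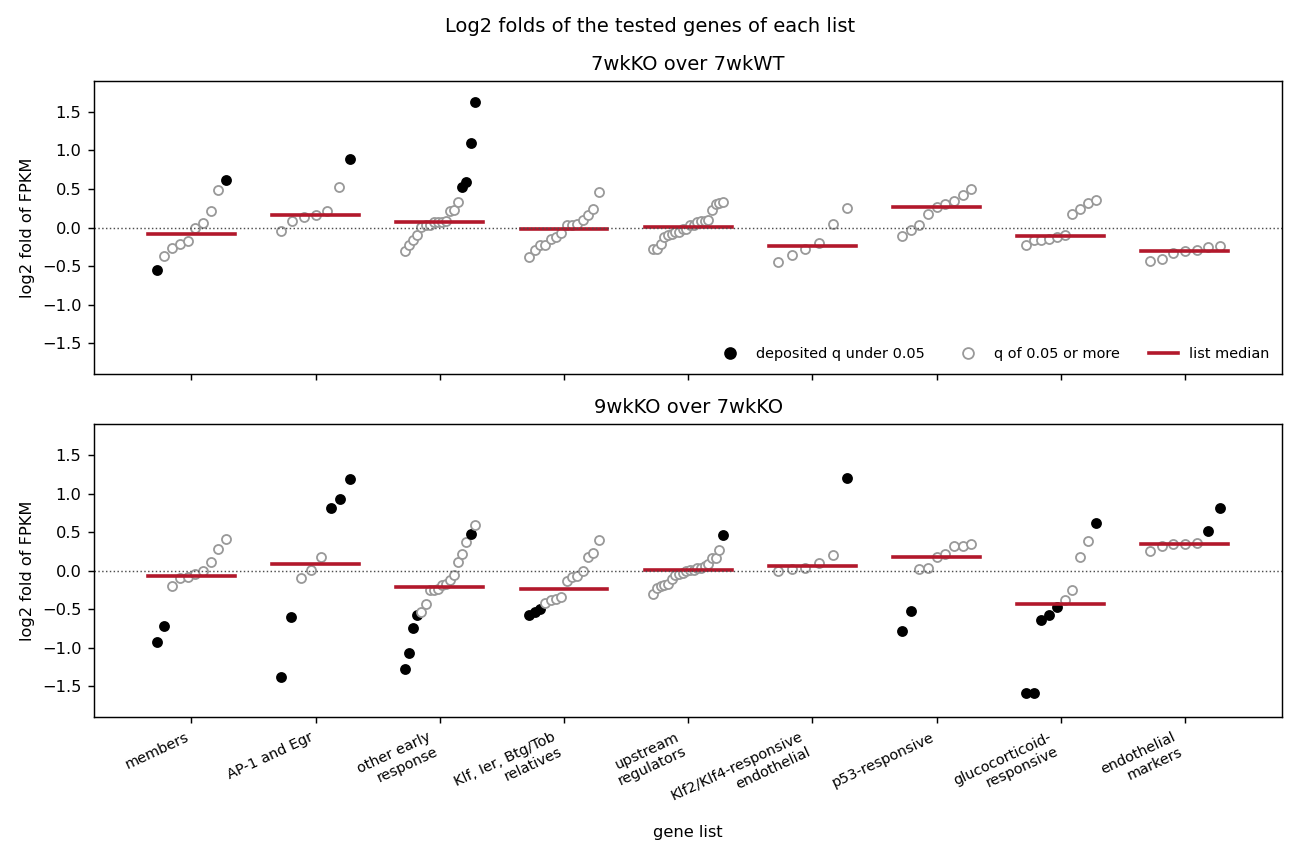
Log2 fold of FPKM of every tested gene in 9 lists, 7wkKO over 7wkWT above and 9wkKO over 7wkKO below; each point is a gene, black where the deposited q is under 0.05, and red lines are list medians. The 10 members have medians of -0.09 and -0.06, the endothelial markers -0.30 and 0.35, and the AP-1 and Egr genes are called in both directions in the lower panel.

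For the called members, the genes with the closest pair of log2 folds were sought among genes that reached FPKM 1 in every group and were called in the same comparison or comparisons. The measure was the Euclidean distance in log2 units over the 2 folds, which rest on 3 groups and share 7wkKO. Closest to Ier5, of 97 candidates, were the collagen IV gene Col4a3 (distance 0.07), the transcription factor gene Foxo3 (0.09) and Itgbl1 (0.14). Foxo3 had FPKM of 7.71 in 9wkKO, 14.3 in 7wkKO and 8.73 in 7wkWT in the authors' deposited tables. Closest to Nr4a3, of 381 candidates, were the calcium channel subunit gene Cacnb1 (0.03), the Z-disc gene Pdlim3 (0.05) and Gramd1b (0.07). Closest to Nr4a1, of 157 candidates, were Timp4, a metalloproteinase inhibitor gene (0.02), Mylip, which encodes a ubiquitin ligase for the LDL receptor (0.04), and Eepd1 (0.05). Timp4 had FPKM of 55.9 in 9wkKO, 51.9 in 7wkKO and 77.2 in 7wkWT in the authors' deposited tables.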

How the data were processed

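Poly(A)-selected stranded libraries were made, per the labels' protocols, and the submitters' processing notes name TopHat2, Cuffdiff and mm10; the sources used here give no versions or settings. The authors deposited, per gene and isoform, 1 FPKM value per group, a p-value, a q-value and Cuffdiff's test statistic (treated as a score), and depth per sample is unknown. Log2 folds were recomputed from FPKM without a pseudocount. Errors are the log2 fold divided by the deposited statistic. Deposited p-values correspond to normal deviates 1.74 times the statistic in both comparisons (median over genes), so intervals are wider than the deposited p implies. File starts were raised by 1. The members and gene lists were chosen with earlier results of these data known. All 10 members were named, with up to 4 called genes of each list, the 2 most abundant where none was called, a few others chosen after their values were seen, and the 3 nearest patterns of each called member. The adjustment was tested on simulated data. Alternatives were other q thresholds, adjustment recomputed, FPKM filters, the statistic alone, a fold minimum, isoforms, pseudocounts and centring. Python 3.11.15 was used with NumPy 2.4.6, pandas 2.3.3 and SciPy 1.17.1.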

Additional observations from a re-analysis of the deposited data

How the results depend on the processing

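At 7 weeks 2 members were called, and 1 at a q under 0.01 (Ier5). With a normal p from the deposited statistic alone, 0 members were called at 7 weeks and 1 (Ier5) between 9wkKO and 7wkKO, where 2 were called by the deposited q. The same test left 2 of the 5 other early response genes called at 7 weeks, Ctgf and Myc, and 3 of the 10 called between 9wkKO and 7wkKO, Atf3, Ctgf and Myc. It left 14 of 284 calls over all genes at 7 weeks and 69 of 561 later, and a q under 0.01 left 136 and 337. A q under 0.10 added Ier2 to the later calls, as higher, making 3. Recomputed adjustment, an FPKM minimum of 1, a fold minimum and the isoform tables left 2 members called in each comparison. Recomputed adjustment and both minimums reuse the deposited p, and the single transcripts of Ier5 and Nr4a1 repeat the gene test. These settings are therefore not independent checks of the calls. Pseudocounts, centring and the main isoform moved none of 80 member folds beyond its 95% interval, the largest shift being 0.62 for Nr4a2, and no called fold changed sign. For the 8 genes with a single transcript the main isoform gives the gene's own fold. The intervals are also wide, so staying within them says little about stability. Levels in 9wkKO relative to 7wkWT moved by at most 0.012. No paired analysis was possible because the tables hold 1 value per group, which also prevented leaving out single samples. Depth is unknown.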
